A study of Arabidopsis thaliana with 6 samples.

Results

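Transcripts of root-tip cells with a 4n DNA content (the G2M gate) were compared with those of cells with a 2n DNA content (the G1 gate), over all genes of the nuclear genome of Arabidopsis thaliana that passed a filter on low read counts. The filter left 25089 of 32548 nuclear genes, out of 32833 genes in the table. Both gates were sorted from protoplasts, cells freed of their walls by enzymes, of root tips of seedlings 7 days old. The plants of both gates were Col0 and carried the same reporters, H2B-RFP, a red-tagged histone of the nucleus, and CDT1a-GFP, a green-tagged protein that licenses replication origins. Each gate has 2 libraries, and another gate, for S phase, adds 2 more, which entered the fit and are described where they bear on this contrast. The sort was by DNA content alone, so the 2n gate can hold cycling cells in G1 together with cells that have left the cycle, and the 4n gate cells in G2 or mitosis together with cells that have doubled their DNA without dividing. Bulk RNA cannot tell fewer cells of a type from less RNA per cell. The labels do not say that the libraries of a gate came from separate plants, so p-values measure the spread between libraries, which may be technical.

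In plants, the passage through G2 into mitosis is driven by B-type cyclins and plant-specific B-type cyclin-dependent kinases, whose genes are switched on together by MYB3R factors that read a short promoter word, the mitosis-specific activator (MSA) core. At the root tip, dividing cells of the meristem lie beneath the root cap, whose outer cells die and are shed, and above the meristem the cells elongate and become hair and non-hair epidermis, cortex, endodermis, xylem and phloem. Cells that leave division often repeat replication without mitosis, so that DNA content and fate are linked only loosely.

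Total counts were 15947211 and 31629519 in the G2M libraries and 128604597 and 61572560 in the G1 libraries, so that a floor of 3 counts was worth 0.101 to 0.200 CPM (read counts relative to the total of the library, scaled with edgeR's factors) in G2M and 0.0230 to 0.0455 CPM in G1. Such floors cover counting error only. Mitochondrial genes, which are not among the genes described here, took 2.94% and 3.13% of counts in G2M and 8.23% and 6.53% in G1. Photosystem, light-harvesting and Rubisco genes, which mark shoot tissue, summed to 159 and 156 CPM in the G2M libraries, against 142 and 164 CPM in the G1 libraries over 58 genes. CDT1A, the gene behind the green reporter, had 142 and 154 CPM in the G2M libraries and 158 and 148 CPM in the G1 libraries (log2 fold change −0.05, adjusted p = 0.842), and any reads of the reporter transcript may be counted in these values.

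Of 25089 nuclear genes tested, 5882 rose in the G2M gate and 4280 fell at an adjusted p under 0.05 (edgeR quasi-likelihood F test with Benjamini-Hochberg adjustment), which is 23.4% and 17.1% of genes, or 40.5% in either direction. Changes of at least 2-fold numbered 2454 upward (9.78%) and 3030 downward (12.1%), and changes of at least 4-fold 366 upward and 1222 downward, so rises were more numerous and falls larger, with median log2 fold changes of 0.91 and −1.44 among the called genes. All 4280 genes that fell and 5878 of the 5882 that rose had libraries that did not overlap between the gates. Genes called from these same libraries tend to show this by their selection, and no share over all genes tested was taken. The split depended on the scaling. Upper-quartile factors, which moved the median of all genes by −0.22 on the log2 scale, called 4443 higher and 5562 lower, or 44.4% of calls higher against 57.9% with TMM factors. Leaving out a G2M or G1 library called fewer falls, as few as 2731 without G1 replicate 1 and 2492 without G2M replicate 1, and leaving out an S library called more, 5748 without S replicate 1 and 5600 without S replicate 2.

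The direction of change moved with the level of a gene. With genes ordered by mean CPM and divided into 5 equal groups, the median log2 fold change was −1.27 in the lowest group, −0.86 in the next, 0.07 in the middle one, 0.28 in the one above and 0.42 in the highest. In the highest group 52.4% of genes rose and 21.1% fell, while in the group next to the lowest 3.49% rose and 20.11% fell. The G2M libraries were the shallower ones, and the median over all genes was −0.13 at full depth and −0.03 after thinning the libraries to equal depth, where fewer genes, 20951, passed the filter. Among the 14093 genes with a mean of at least 5 CPM, 39.7% rose and 19.5% fell, 59.2% in all, with a median of 0.29. Lists of weakly expressed genes are therefore to be read against these shares as well as against those of all genes.

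**Figure D1:**
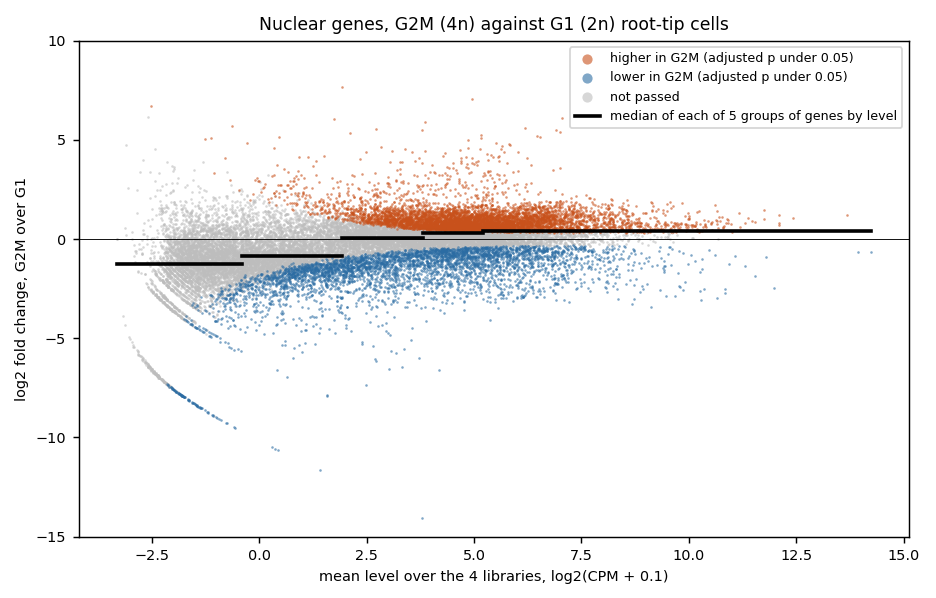
Log2 fold change of each nuclear gene tested, G2M over G1 (vertical axis), against its mean level over the 4 libraries as log2(CPM + 0.1) (horizontal axis), with genes that rose, fell and did not pass in separate colours. The cloud is centred below 0 at low levels and above 0 at high levels.

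The 12 largest rises among genes with a symbol and at least 10 CPM in the G2M gate included many genes of cell division. CYCB1;2 (AT5G06150, chromosome 5, 1859279 to 1861703) had 268 and 233 CPM in the G2M libraries, against 7.17 and 4.71 CPM in the G1 libraries, a log2 fold change of 5.38 ± 0.21 (± SE, adjusted p = 8.12e-09). DRP5A (AT1G53140, chromosome 1, 19799188 to 19802675) had 201 and 158 CPM in the G2M libraries, against 5.07 and 4.99 CPM in the G1 libraries (5.16 ± 0.17). In both genes the G2M libraries stood far above the G1 libraries, and the libraries of a gate lay close together. ROPGEF6 (AT3G55660, chromosome 3, 20648794 to 20651484), an activator of the ROP GTPases of cell polarity, had 76.9 and 62.3 CPM in the G2M libraries, against 3.08 and 0.773 CPM in the G1 libraries (5.09 ± 0.41). MRLK (AT3G56100, chromosome 3, 20816866 to 20819819), annotated as a meristematic receptor-like kinase, had 58.8 and 52.7 CPM in the G2M libraries, against 1.67 and 1.89 CPM in the G1 libraries (4.97 ± 0.30). Next came CYCB2;4 (4.82 ± 0.18), the minus-end kinesin ATK5 (4.78 ± 0.19), CYCB1;4 (4.74 ± 0.17), the phragmoplast microtubule bundler MAP65-3 (4.56 ± 0.17), PS1 (4.56 ± 0.28), a forkhead-associated domain protein known for the orientation of meiotic spindles, the cyclin CYCA1;1 (4.51 ± 0.16), SDG35 (4.46 ± 0.29), a SET domain protein, and CYCB1;3 (4.40 ± 0.32).

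The 12 largest falls among genes with a symbol and at least 10 CPM in the G1 gate included genes of late phloem, sugar cleavage and hormone breakdown. HVA22F (AT2G42820, chromosome 2, 17817244 to 17818545), a member of a family induced by abscisic acid, had 0.133 and 0.201 CPM in the G2M libraries, against 14.9 and 10.6 CPM in the G1 libraries (log2 fold change −6.17 ± 0.45, adjusted p = 5.88e-07). NAC045 (AT3G03200, chromosome 3, 734892 to 738629), a factor that directs the loss of the nucleus in sieve elements, had 0.800 and 0.402 CPM in the G2M libraries, against 18.4 and 13.1 CPM in the G1 libraries (−4.81 ± 0.43), and its close relative NAC086 had 0.267 and 0.771 CPM in the G2M libraries, against 16.6 and 13.8 CPM in the G1 libraries (−4.73 ± 0.64). In these genes the G2M libraries were near or under 1 CPM and both G1 libraries above 10 CPM. SUS5 (AT5G37180, chromosome 5, 14718141 to 14723139), a sucrose synthase of the phloem, had 0.733 and 0.804 CPM in the G2M libraries, against 18.6 and 10.2 CPM in the G1 libraries (−4.21 ± 0.57). PRA1.B5 (AT5G01640, chromosome 5, 241212 to 242322), a prenylated RAB acceptor, had 7.46 and 7.94 CPM in the G2M libraries, against 89.5 and 84.1 CPM in the G1 libraries (−3.49 ± 0.15). CKX4 (AT4G29740, chromosome 4, 14566183 to 14569380), which breaks down cytokinin, had 1.0 and 1.24 CPM in the G2M libraries, against 15.9 and 8.32 CPM in the G1 libraries (−3.41 ± 0.38). The others named by the same rule were the ascorbate peroxidase gene APX5 (−4.34 ± 1.03), the microtubule-associated MAP18 (−3.72 ± 0.25), the cysteine proteinase gene CEP3 (−3.71 ± 0.57), SSL1 (−3.46 ± 0.29), IGMT4 (−3.41 ± 0.42), an O-methyltransferase of indole glucosinolates, and SRO3 (−3.3 ± 0.28). APX5 lost its call in DESeq2 (adjusted p = 0.0619).

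The most abundant transcripts changed by smaller factors. Among genes that rose at least 2-fold, the highest levels were those of AT5G60390, an elongation factor of translation, with 18586 and 18386 CPM in the G2M libraries, against 7813 and 7982 CPM in the G1 libraries (log2 fold change 1.23 ± 0.13), and HOG1, which recycles S-adenosylhomocysteine, with 7492 and 7397 CPM in the G2M libraries, against 3593 and 3549 CPM in the G1 libraries (1.06 ± 0.13). The chaperone HSC70-1 (1.22 ± 0.12), the elongation factor LOS1 (1.46 ± 0.12), and the ribosomal proteins P40 (1.02 ± 0.12) and RP1 (1.07 ± 0.13) followed. Elongation factor and ribosomal protein genes have near-identical copies, so their single values are uncertain. Among genes that fell at least 2-fold, the most abundant were secreted or defence-related proteins. AT1G52070, a mannose-binding lectin, had 1342 and 1132 CPM in the G2M libraries, against 7291 and 6371 CPM in the G1 libraries (−2.47 ± 0.13), and its neighbour AT1G52060 had 400.3 and 338 CPM in the G2M libraries, against 3072 and 2689 CPM in the G1 libraries (−2.97 ± 0.13). AT2G43610, a chitinase, had 1244 and 1341 CPM in the G2M libraries, against 4889 and 4407 CPM in the G1 libraries (−1.85 ± 0.12). AGP31, an arabinogalactan protein of the wall (−1.35 ± 0.14), AT5G60530, annotated as late embryogenesis abundant (−2.71 ± 0.14), and the beta-glucosidase BGLU34 (−2.51 ± 0.16) made up the rest.

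Nearly all mitotic genes of the cell cycle rose, while genes of licensing, replication and the endocycle went both ways. Of 28 mitotic cyclins, kinases, activators and cytokinesis genes, 26 rose and none fell, with a median log2 fold change of 3.38, against 23.4% risen, 17.1% fallen and a median of −0.13 over all genes tested. The exceptions were CYCA1;2 (−0.50 ± 0.22, adjusted p = 0.0951) and CYCA2;3 (−0.07 ± 0.14, adjusted p = 0.711). The A2 cyclins CYCA2;2 (1.90), CYCA2;1 (1.51) and CYCA2;4 (0.71) rose less than the B1 cyclins, whose log2 fold changes lay between 4.16 (CYCB1;1) and 5.38 (CYCB1;2). Among 19 genes of origin licensing and replication 5 rose and 3 fell (median −0.04), shares near those of all genes. CDT1B, the second licensing factor, had 56.0 and 52.0 CPM in the G2M libraries, against 17.1 and 16.9 CPM in the G1 libraries (1.67 ± 0.15), and ORC1B (0.78), MCM2 (0.57), RNR1 (0.53) and MCM6 (0.45) rose too, while SLD5 (−0.74), CDC6 (−0.57) and PCNA2 (−0.46) fell. The kinase inhibitors and endocycle genes showed 3 of 19 risen and 5 fallen (median −0.30). CCS52B, an activator of the anaphase-promoting complex at mitosis, had 113 and 77.3 CPM in the G2M libraries, against 20.4 and 11.1 CPM in the G1 libraries (2.58 ± 0.25), while CCS52A2, its relative of endoreplication, had 14.3 and 14.3 CPM in the G2M libraries, against 22.2 and 25.1 CPM in the G1 libraries (−0.72 ± 0.22). ILP1 (1.39 ± 0.17) and RHL1 (0.80 ± 0.16), both known to act in endoreplication, rose, and the inhibitors SMR4 (−1.48 ± 0.30), KRP6 (−0.96 ± 0.20), KRP3 (−0.78) and KRP7 (−0.65) fell. MCM2, MCM6, CDC6, PCNA2 and KRP7 lost their calls without G1 replicate 1 (adjusted p 0.0544 to 0.240), as did RNR1, MCM6, CDC6, PCNA2, CCS52A2 and KRP3 without G1 replicate 2 (0.0510 to 0.178), MCM2, RNR1, MCM6, SLD5, CDC6, PCNA2, CCS52A2 and KRP3 without G2M replicate 1 (0.0558 to 0.457) and MCM6, CCS52A2, KRP3 and KRP7 without G2M replicate 2 (0.0845 to 0.163). MCM6 lost its call with upper-quartile factors (adjusted p = 0.112). Mitotic regulators numbered 1 lower without S replicate 1 and 1 under upper-quartile scaling. Licensing and replication genes numbered 2 to 3 higher without either G1 library or G2M replicate 1, and 0 to 1 lower without either G1 library or G2M replicate 1 and 5 under upper-quartile scaling. Kinase inhibitors and endocycle genes numbered 2 to 3 lower without either G2M library or G1 replicate 2.

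Promoters of 3 genes with large rises are shown for their matches to the MSA core. The sequences are the 250 bases before the annotated start in the RefSeq annotation of TAIR10.1, printed from 5′ to 3′ on the strand of the gene. In the first set, capitals mark the MSA core, AACGG on either strand (CCGTT where it lies on the other strand). The set holds the B-type cyclins CYCB1;2 at chr5:1861704-1861953 (minus strand) and CYCB1;3 at chr3:3627274-3627523 (minus strand), and DRP5A, a dynamin-related protein of the cell plate, at chr1:19798938-19799187 (plus strand). Among those 12 genes with a symbol, CYCB1;2 had the most cores, 4, CYCB1;3 had 3, and DRP5A was one of several genes with 2.
CYCB1;2: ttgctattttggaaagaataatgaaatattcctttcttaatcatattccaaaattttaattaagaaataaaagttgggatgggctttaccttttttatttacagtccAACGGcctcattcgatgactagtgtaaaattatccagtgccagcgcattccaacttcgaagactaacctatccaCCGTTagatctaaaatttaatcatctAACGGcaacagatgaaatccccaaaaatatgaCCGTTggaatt
CYCB1;3: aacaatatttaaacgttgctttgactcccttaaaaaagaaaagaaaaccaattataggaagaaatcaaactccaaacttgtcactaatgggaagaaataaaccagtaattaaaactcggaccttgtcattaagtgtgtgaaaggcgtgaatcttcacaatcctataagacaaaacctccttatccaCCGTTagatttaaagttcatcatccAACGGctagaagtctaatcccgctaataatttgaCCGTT
DRP5A: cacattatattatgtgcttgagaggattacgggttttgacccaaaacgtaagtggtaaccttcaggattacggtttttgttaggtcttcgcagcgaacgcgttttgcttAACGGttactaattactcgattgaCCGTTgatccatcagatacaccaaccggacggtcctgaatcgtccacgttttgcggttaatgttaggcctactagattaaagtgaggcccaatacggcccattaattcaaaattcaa

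In the second set, capitals mark 2 words of growth-related plant promoters, site II (TGGGCC or TGGGCT) and the telobox (AAACCCTA), again on either strand and with overlapping matches merged. AT5G15200, a ribosomal protein S4 gene at chr5:4936430-4936679 (minus strand), is the most abundant risen ribosomal protein gene whose window holds both words, with 3688 and 3985 CPM in the G2M libraries, against 2025 and 2180.2 CPM in the G1 libraries (0.87 ± 0.12). In the last, capitals mark the W-box (TTGACC or TTGACT), the word read by WRKY factors, in the promoter of WRKY53, a fallen WRKY gene at chr4:12393983-12394232 (minus strand). WRKY53 was picked for this word, as the gene with the most W-boxes, 2, among the named falls of the WRKY and wounding lists.
AT5G15200: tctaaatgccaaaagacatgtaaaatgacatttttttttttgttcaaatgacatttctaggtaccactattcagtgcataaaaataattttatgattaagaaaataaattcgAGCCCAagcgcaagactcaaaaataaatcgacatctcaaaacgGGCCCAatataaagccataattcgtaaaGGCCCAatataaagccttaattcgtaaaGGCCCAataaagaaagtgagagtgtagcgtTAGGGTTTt
WRKY53: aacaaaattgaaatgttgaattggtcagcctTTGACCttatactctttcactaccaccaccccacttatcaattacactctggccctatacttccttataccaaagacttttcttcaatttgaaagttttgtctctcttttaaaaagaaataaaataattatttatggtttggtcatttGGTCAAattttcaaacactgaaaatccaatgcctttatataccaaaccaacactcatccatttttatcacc

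Over the longer window of 250 bases before to 50 bases after the start, the MSA core stood in 48.1% of promoters of genes that rose at least 4-fold in G2M, in 29.9% of all that rose, in 23.5% of those that fell, in 25.2% of all genes tested and in 27.9% of those with a mean of at least 5 CPM. Among the 28 mitotic regulators, 71.4% held it. Site II stood in 34.9% of promoters of risen genes, 15.1% of fallen genes and 22.9% of all, in 29.2% of those of at least 5 CPM, and in 69.2% of ribosomal protein promoters and 57.8% of proteasome promoters. The telobox stood in 9.91% of risen, 3.48% of fallen and 6.11% of all promoters, and in 39.6% of those of ribosomal proteins. Genes that rose at least 4-fold held these words less often than all risen genes, with 26.8% for site II and 5.46% for the telobox. The W-box leaned the other way, with 29.6% of risen, 37.1% of fallen and 32.4% of all promoters, and 38.2% of those of WRKY factors. The letters TATAAA stood in 49.1% of risen, 55.4% of fallen and 51.8% of all. No test was run on these shares, and a match is a run of letters, not a site shown to be used. Of the 12 rises chosen by symbol and level, CYCB2;4, ATK5, CYCB1;4 and PS1 had no core within the 250 bases before the start.

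**Figure D2:**
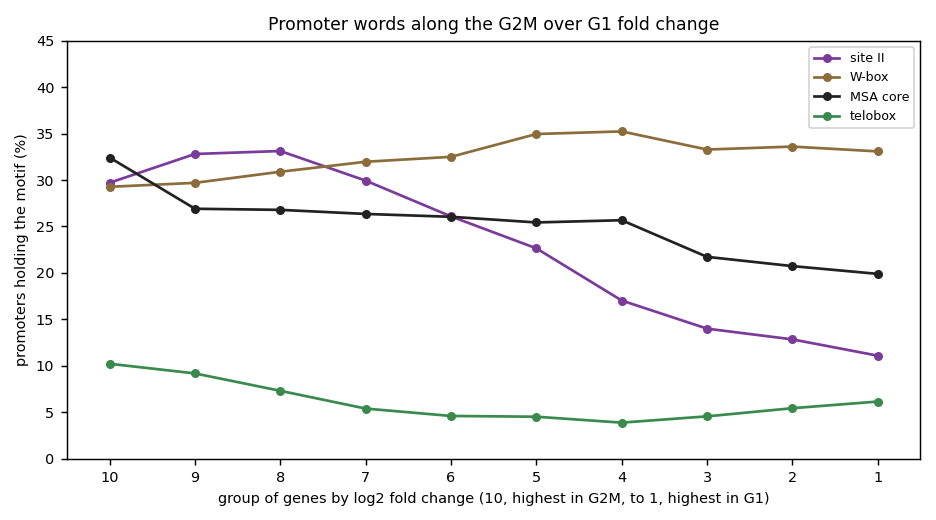
Share of promoters (vertical axis, percent) that hold each word, for genes ordered by log2 fold change and divided into 10 equal groups (horizontal axis, from the group highest in G2M on the left to the group highest in G1 on the right). Site II, the telobox and the MSA core are more frequent in the groups on the left, and the W-box slightly more in those on the right.

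Root cap genes fell as a block. All 10 tested regulators of root cap maturation and of its developmental cell death fell, with a median log2 fold change of −2.27, and their summed level was 312 and 316 CPM in the G2M libraries, against 1477 and 1361 CPM in the G1 libraries. EXI1, DMP4, PASPA3 and KIRA1 were dropped from this list because the annotation lacks these names. SMB (AT1G79580, chromosome 1, 29940803 to 29943713), the NAC factor that starts cap maturation, had 20.6 and 14.9 CPM in the G2M libraries, against 111 and 78.5 CPM in the G1 libraries (−2.43 ± 0.20, adjusted p = 1.21e-06). BRN1 (AT1G33280, chromosome 1, 12072611 to 12073965), its relative in outer cap cells, had 53.5 and 52.4 CPM in the G2M libraries, against 247 and 230.5 CPM in the G1 libraries (−2.17 ± 0.12), and BRN2 had 25.9 and 27.0 CPM in the G2M libraries, against 146 and 128 CPM in the G1 libraries (−2.37 ± 0.13). FEZ, which promotes the formative divisions of cap stem cells, had 8.66 and 6.0 CPM in the G2M libraries, against 34.2 and 24.3 CPM in the G1 libraries (−2.02 ± 0.23). Both G1 libraries lay above both G2M libraries in each of these genes. Of the executors of cap cell death, the nuclease BFN1 (−3.16 ± 0.28) and the ribonuclease RNS3 (−3.09 ± 0.21) had the largest log2 changes of the list, and MC9, a metacaspase, fell too (−2.15 ± 0.26). The auxin response factors ARF10 (−1.03 ± 0.18) and ARF16 (−0.87 ± 0.14), which restrict cap stem cells, fell least. Each of the 10 genes kept its call in every fit with 1 library left out and with upper-quartile factors. None of the 4 defining cap markers SMB, BRN1, BRN2 and FEZ was at 0 in a library, and the part of this lower level of cap transcripts in falls of other genes was not tested.

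Regulators of the stem cell niche and meristem went both ways, with 7 of 16 risen and 3 fallen (median 0.38). GIF1, a growth co-activator, had 145 and 181 CPM in the G2M libraries, against 49.6 and 48.0 CPM in the G1 libraries (1.74 ± 0.20). BBM (1.07 ± 0.16) and PLT2 (0.69 ± 0.15) of the PLETHORA family, which maintain the meristem, rose, and PLT1 had 57.6 and 44.7 CPM in the G2M libraries, against 47.1 and 43.2 CPM in the G1 libraries (0.18 ± 0.17, adjusted p = 0.435). WOX5, the marker of the quiescent centre, was close to the floor with 0.400 and 0.168 CPM in the G2M libraries, against 0.39 and 0.424 CPM in the G1 libraries (adjusted p = 0.684). The genes that fell were RGF2, with 0.267 and 0.0670 CPM in the G2M libraries, against 1.68 and 3.27 CPM in the G1 libraries (−4.06 ± 0.84), and RGF3 (−1.12 ± 0.16), which encode root growth factor peptides, and UPB1 (−1.83 ± 0.39), a factor of the balance between division and differentiation through peroxidases. Niche and meristem regulators numbered 4 higher without any 1 of the G2M and G1 libraries and 4 under upper-quartile scaling.

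In the vascular lists more xylem genes rose than fell, and more phloem genes fell than rose. Of 25 xylem genes 10 rose and 1, IRX10 (−0.83 ± 0.17), fell, with a median of 0.85 and a summed level of 497 and 527 CPM in the G2M libraries, against 227 and 296 CPM in the G1 libraries. XCP2, a peptidase of dying xylem cells, had 8.40 and 13.3 CPM in the G2M libraries, against 0.957 and 2.39 CPM in the G1 libraries (2.72 ± 0.52), and XCP1 had 10.13 and 10.2 CPM in the G2M libraries, against 2.37 and 2.86 CPM in the G1 libraries (1.96 ± 0.30). Early regulators rose with them, namely the vascular factors HB-8 (1.38 ± 0.18) and LHW (1.13 ± 0.14), T5L1 (1.39 ± 0.19), and ACL5 (1.61 ± 0.21), a thermospermine synthase that delays vessel maturation. The master switches of vessel and fibre fate did not pass, with VND7 at 2.07 and 3.15 CPM in G2M against 3.47 and 3.36 CPM in G1 and MYB46 at 0.466 and 0.704 CPM in G2M against 0.421 and 0.50 CPM in G1. Of the secondary wall cellulose synthases, CESA4 rose (1.24 ± 0.44), CESA7 had 5.20 and 8.58 CPM in G2M against 3.5 and 6.70 CPM in G1 (adjusted p = 0.474), and CESA8 was near the floor. In the phloem list 8 of 18 genes fell and 2 rose, SMXL5 (0.92) and CVP2 (0.86), with a median of −0.76 and a summed level of 136 and 137 CPM in the G2M libraries, against 189 and 188 CPM in the G1 libraries. That median lay between −0.76 and −0.29 with 1 G2M or G1 library left out. Of the 14 phloem genes with a mean of at least 5 CPM, 5 fell and 2 rose, with a median of 0.04, against 0.29 over all such genes. APL, the identity factor of phloem, had 7.46 and 8.51 CPM in the G2M libraries, against 16.2 and 20.8 CPM in the G1 libraries (−1.2 ± 0.23). CALS7, which lines sieve pores with callose, had 5.06 and 3.15 CPM in the G2M libraries, against 19.1 and 15.4 CPM in the G1 libraries (−2.1 ± 0.28), and NEN4, an exonuclease of nuclear breakdown, fell too (−4.10 ± 0.61). SEOR1, a filament protein of sieve elements, had 0 and 1 reads in the G2M libraries, against 491 and 135 reads in the G1 libraries. SUC2, the sucrose loader of companion cells, overlapped between gates with 5.13 and 24.3 CPM in G2M against 6.53 and 6.80 CPM in G1 (adjusted p = 0.119). SMXL5 and CVP2 lost their calls without G1 replicate 1 (adjusted p 0.0700 to 0.265), as did CESA4 without G1 replicate 2 (0.242), CESA4 and CVP2 without G2M replicate 1 (0.146 to 0.147) and CESA4 and SMXL5 without G2M replicate 2 (0.120 to 0.266). CESA4 and SMXL5 lost their calls with upper-quartile factors (adjusted p 0.0971 to 0.110). Xylem genes numbered 2 lower without either S library. Phloem genes numbered 0 to 1 higher without G1 replicate 1 or G2M replicate 2, 4 without S replicate 2 and 1 under upper-quartile scaling.

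In the lists of ground tissue and epidermal patterning more genes rose than fell. In the ground tissue list 5 of 16 genes rose and none fell (median 0.62). The median lay between −0.17 and 1.19 with 1 G2M or G1 library left out. A mean of 5 CPM was reached by 4 of the 16. CO2 and PEP, the markers chosen for cortex, and SGN1, CIF1 and CIF2 were dropped because the annotation lacks these names. SCR (AT3G54220, chromosome 3, 20069987 to 20072878), the GRAS factor of endodermal fate and asymmetric division, had 16.8 and 22.1 CPM in the G2M libraries, against 4.33 and 5.42 CPM in the G1 libraries (2.01 ± 0.24), and its partner SHR, which is made in the stele and counted in that list, had 68.0 and 72.5 CPM in the G2M libraries, against 22.5 and 30.7 CPM in the G1 libraries (1.40 ± 0.17). MGP, a target of both, had 26.3 and 30.3 CPM in the G2M libraries, against 5.26 and 7.15 CPM in the G1 libraries (2.2 ± 0.20), and SCL3 (1.27 ± 0.23), JKD (0.73) and MYB36 (3.0) also rose. The list of pericycle and stele, which holds SHR, went both ways. There 2 of 10 genes rose and 3 fell (median −0.08), and 0 fell in limma-voom. The markers of mature endodermis were low and did not pass, with CASP1 at 0.133 and 1.74 CPM in G2M against 0.191 and 0.652 CPM in G1 and CASP2 at 1.33 and 0.704 CPM in G2M against 2.09 and 2.03 CPM in G1. Of 11 epidermal patterning genes 7 rose and WER fell, with a median of 1.30. GL2 (AT1G79840, chromosome 1, 30036956 to 30041440), which sets the non-hair fate, had 57.7 and 51.1 CPM in the G2M libraries, against 15.2 and 10.46 CPM in the G1 libraries (2.08 ± 0.19). GL3 (2.54 ± 0.20), EGL3 (1.30 ± 0.21) and MYB23 (2.24 ± 0.35), partners in the complex that drives GL2, and SCM (1.23 ± 0.17), the receptor that positions it, rose as well. WER, the MYB factor of the same complex, had 50.2 and 52.9 CPM in the G2M libraries, against 96.0 and 89.2 CPM in the G1 libraries (−0.84 ± 0.13), and CPC, the mobile inhibitor, had 23.2 and 23.6 CPM in G2M against 15.9 and 19.5 CPM in G1 (adjusted p = 0.0781). Of 16 genes of hair growth 1 rose and 3 fell (median −1.23). RHD6, which starts hair formation, had 4.06 and 2.31 CPM in G2M against 0.39 and 0.894 CPM in G1, and RHD2, the oxidase of the growing hair tip, had 4.26 and 3.82 CPM in G2M against 15.4 and 11.1 CPM in G1. Both passed, in opposite directions (2.32 and −1.72), and the other genes that fell were RSL1 (−1.07) and COBL9, with 0 and 0.101 CPM in G2M against 0.727 and 1.32 CPM in G1. JKD, MYB36, RHD6 and COBL9 lost their calls without G1 replicate 1 (adjusted p 0.0507 to 0.143), as did JKD, MYB36, RSL1 and COBL9 without G1 replicate 2 (0.122 to 0.387), JKD, MYB36, RHD6, RSL1 and COBL9 without G2M replicate 1 (0.0676 to 0.160) and JKD, MYB36 and RSL1 without G2M replicate 2 (0.145 to 0.276). JKD lost its call at equal depth (adjusted p = 0.101), as did RSL1 and COBL9 in limma-voom (0.0642 to 0.158) and JKD and MYB36 with upper-quartile factors (0.0608 to 0.140). Ground tissue genes numbered 3 higher without any 1 of the G2M and G1 libraries and 3 under upper-quartile scaling, and 1 lower without either S library. Root hair genes numbered 0 higher without G1 replicate 1 or G2M replicate 1, and 1 lower without G1 replicate 2 or G2M replicate 1.

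**Figure D3:**
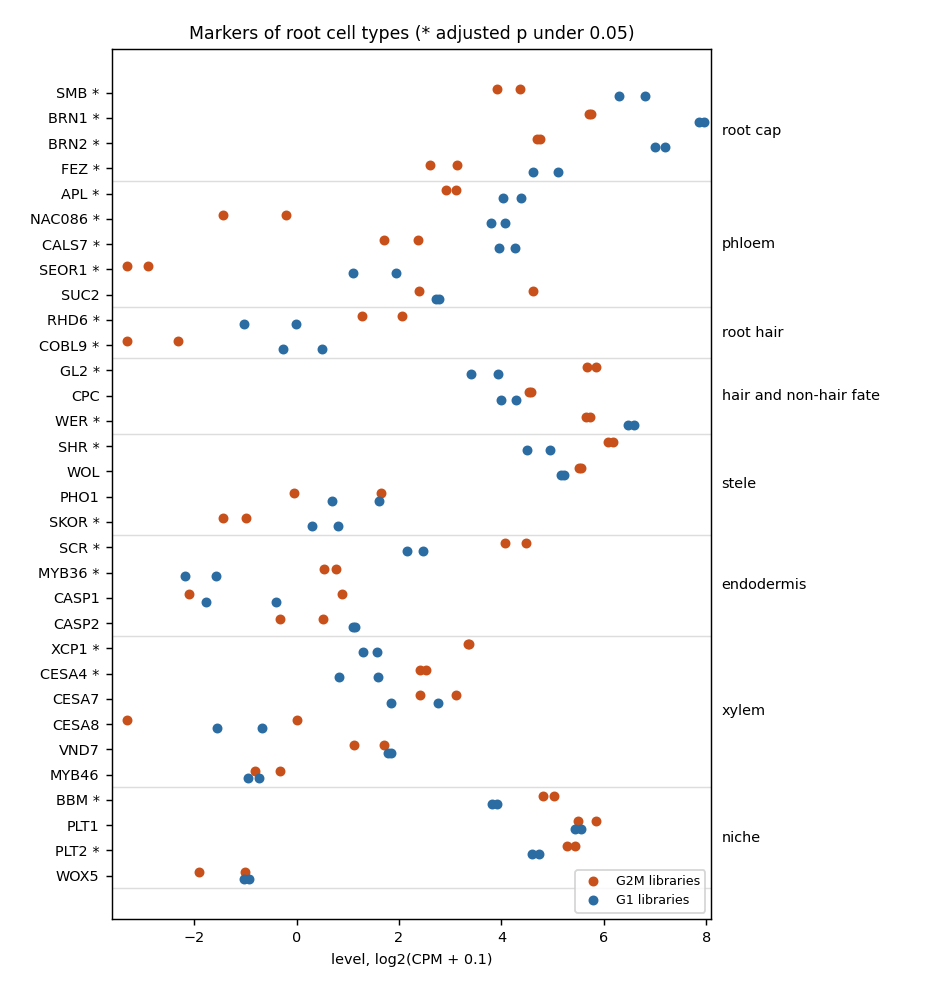
Level of markers of root cell types in each library, as log2(CPM + 0.1) on the horizontal axis, with 1 row per gene and both gates in each row. All root cap markers sit lower in the G2M libraries, while the regulators SCR, SHR and GL2 sit higher there.

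**Figure D4:**
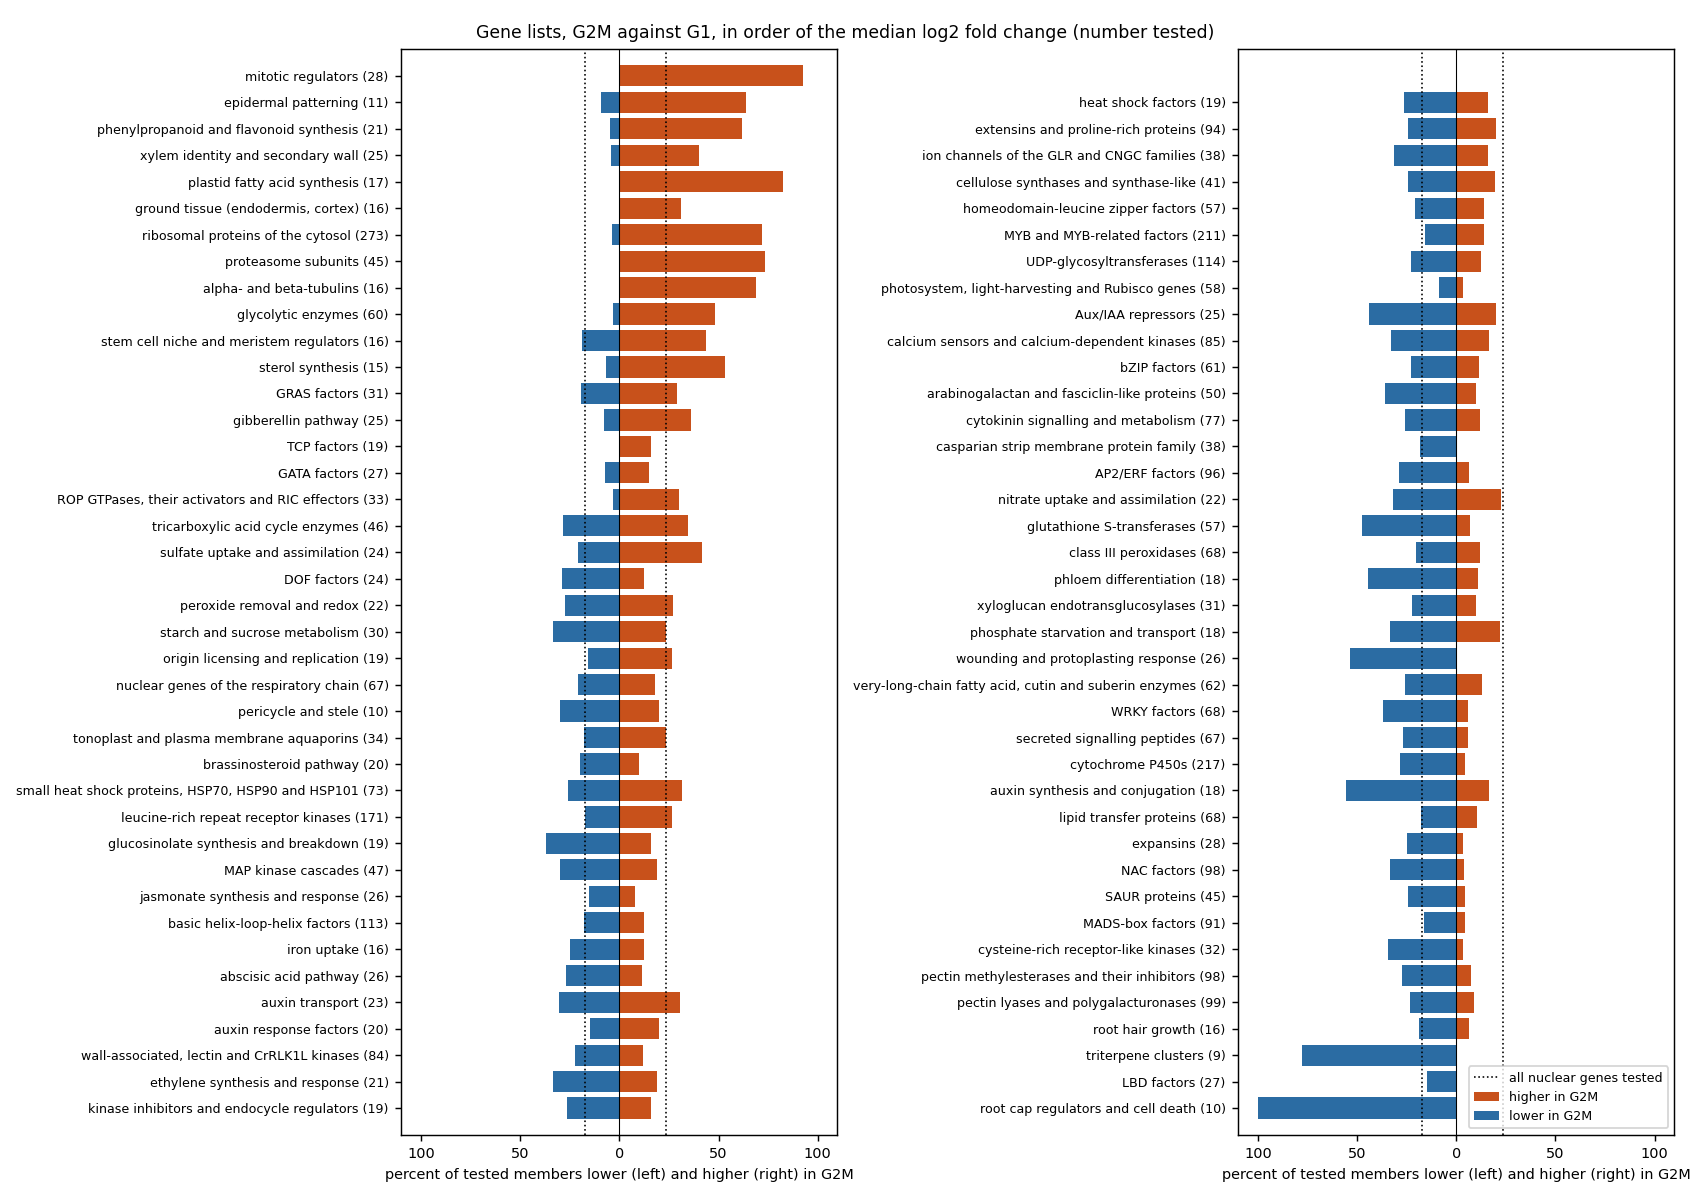
Percent of tested members of each gene list that rose (right of 0) and fell (left of 0) in the G2M gate, with lists in order of their median log2 fold change and the number tested in brackets. Dotted lines mark the shares over all nuclear genes tested, 23.4% and 17.1%.

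Genes of wall loosening and wall proteins fell more often than they rose. Of 28 expansins, which loosen the wall in growing cells, 7 fell and EXPA15 rose (1.0 ± 0.13), with a median log2 fold change of −1.03. EXPA5 had 0.733 and 0.637 CPM in the G2M libraries, against 7.92 and 6.71 CPM in the G1 libraries (−3.43 ± 0.41), and EXPA17 had 11.8 and 16.8 CPM in the G2M libraries, against 113 and 116 CPM in the G1 libraries (−2.98 ± 0.18). Among 31 xyloglucan endotransglucosylases, which join wall glucans, 7 fell and 3 rose (median −0.78). XTH9, known from meristems, had 73.4 and 81.3 CPM in the G2M libraries, against 13.7 and 17.5 CPM in the G1 libraries (2.31 ± 0.16), and XTH15 (1.75 ± 0.34) and XTH16 (2.54 ± 0.38) rose with it, while XTH10 fell (−5.32 ± 0.70). Pectin methylesterases and their inhibitors fell in 27 of 98 cases and rose in 7 (median −1.11), with PME3 among the risen (1.36 ± 0.27). Arabinogalactan and fasciclin-like proteins fell in 18 of 50 cases (median −0.52), among them AGP2 (−2.52 ± 0.19), AGP22 (−2.4 ± 0.35) and AGP12 (−1.75 ± 0.24). Of the 5 that rose, FLA9 had 24.5 and 25.9 CPM in the G2M libraries, against 4.80 and 5.49 CPM in the G1 libraries (2.3 ± 0.21), and the others were AGP13 (1.44), AGP18 (0.80), and FLA11 (1.51) and FLA12 (2.73), fasciclin-like proteins of secondary walls. Many members of these lists are weakly expressed, where falls outnumbered rises over all genes too. AGP13 lost its call without G1 replicate 1 (adjusted p = 0.0552), as did FLA11 and FLA12 without G1 replicate 2 (0.0703 to 0.0710) and FLA11 without G2M replicate 2 (0.103). Expansins numbered 3 higher without either S library, and 11 lower without S replicate 2. Xyloglucan endotransglucosylases numbered 5 higher without either S library. Pectin methylesterase genes numbered 3 to 4 higher without G1 replicate 1 or G2M replicate 2, and 16 to 17 lower without G1 replicate 1 or G2M replicate 1. Arabinogalactan and fasciclin-like proteins numbered 3 higher without G1 replicate 2.

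Most tubulin genes rose, while other families of the wall and membrane went both ways or fell. CSLD5 (AT1G02730, chromosome 1, 594502 to 598657), a cellulose synthase-like protein that builds the cell plate, had 151 and 98.5 CPM in the G2M libraries, against 7.36 and 4.44 CPM in the G1 libraries (4.38 ± 0.28, adjusted p = 1.63e-07). Of 16 tubulin genes 11 rose and none fell (median 0.52). TUB7 had 622 and 583 CPM in the G2M libraries, against 153 and 154 CPM in the G1 libraries (1.97 ± 0.12), and TUA1 had 6.46 and 6.06 CPM in the G2M libraries, against 2.07 and 2.26 CPM in the G1 libraries (1.53 ± 0.33). Tubulin genes have close copies, so single values are uncertain. Aquaporins went both ways, with 8 of 34 risen and 6 fallen (median −0.09), shares near those of all genes. PIP2A of the plasma membrane had 19.8 and 26.4 CPM in the G2M libraries, against 0.697 and 2.39 CPM in the G1 libraries (3.95 ± 0.67), while TIP2, a tonoplast channel, had 2.87 and 4.05 CPM in the G2M libraries, against 16.1 and 18.1 CPM in the G1 libraries (−2.28 ± 0.35) and NIP5;1, the boric acid channel, fell (−2.01 ± 0.17). Members of the Casparian strip membrane protein family fell in 7 of 38 cases and rose in none (median −0.59), a share of falls near the 17.1% of all genes. Of the 9 with a mean of at least 5 CPM, 3 fell and none rose, with a median of −0.21. The peroxidase genes Prx37, with 32.9 and 40.8 CPM in the G2M libraries, against 2.72 and 5.36 CPM in the G1 libraries (3.21 ± 0.29), and AT4G11290, with 21.9 and 34.2 CPM in the G2M libraries, against 0.299 and 0.697 CPM in the G1 libraries (5.91 ± 0.71), were among the larger rises of their family, in which 8 of 68 rose and 14 fell. Alpha- and beta-tubulins numbered 4 higher without G1 replicate 2. Members of the Casparian strip protein family numbered 1 to 2 higher without either S library, and 4 lower without G2M replicate 1. Tonoplast and plasma membrane aquaporins numbered 5 higher without G1 replicate 1. Class III peroxidases numbered 4 higher without G2M replicate 2, and 7 to 9 lower without any 1 of the G2M and G1 libraries.

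Among other enzymes and proteins of the wall and cell surface, pectin lyases and polygalacturonases, which break down pectin, fell in 23 of 99 cases and rose in 9 (median −1.12). Of the 32 members with a mean of at least 5 CPM, 11 fell and 9 rose, with a median of 0.08. Lipid transfer proteins fell in 12 and rose in 7 of 68 cases (median −0.97), the share of falls again near that of all genes. Of the 9 with a mean of at least 5 CPM, 6 fell and 2 rose, with a median of −1.19. Over all genes at that level 19.5% fell and the median was 0.29. AT3G22600, annotated in that family, had 2.33 and 16.4 CPM in the G2M libraries, against 0.513 and 0.636 CPM in the G1 libraries (4.06 ± 0.70), with the G2M libraries far apart, and LTPG1, known from cuticular wax export, rose too (2.49 ± 0.26), while AT4G22640 fell (−4.08 ± 0.31). Extensins and proline-rich proteins rose in 19 and fell in 23 of 94 cases, with ELP among the risen (3.53 ± 0.34). UDP-glycosyltransferases, which attach sugars to small molecules, fell in 26 and rose in 14 of 114 cases (median −0.43). Of 84 wall-associated, lectin and related receptor kinases 19 fell and 10 rose. AT5G55830, annotated as a lectin receptor kinase, had 29.3 and 23.8 CPM in the G2M libraries, against 0.161 and 1.17 CPM in the G1 libraries (5.50 ± 0.55). The gene has no symbol in the annotation. Pectin lyases and polygalacturonases numbered 12 to 13 lower without G1 replicate 1 or G2M replicate 1 and 35 without S replicate 2. Lipid transfer proteins numbered 4 higher without G1 replicate 1 or G2M replicate 2, and 7 lower without G1 replicate 2 or G2M replicate 1. Extensins and proline-rich proteins numbered 13 lower without G2M replicate 1. UDP-glycosyltransferases numbered 17 lower without G1 replicate 1. Wall-associated, lectin and CrRLK1L kinases numbered 10 lower without G1 replicate 1 or G2M replicate 2.

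Genes for making proteins, and for removing them, rose by modest amounts. Of 273 nuclear ribosomal protein genes 197 rose and 10 fell, with a median log2 fold change of 0.61, or 0.39 with upper-quartile factors. Their summed level was 137434 and 146666 CPM in the G2M libraries, against 82863 and 88519 CPM in the G1 libraries. Genes whose description names an organelle were left out of this list, but some mitochondrial members such as NFD1 (1.23) remain. Of 45 proteasome genes 33 rose and none fell (median 0.58). RPN1A, a subunit of the regulatory particle, had 488 and 431 CPM in the G2M libraries, against 203 and 186 CPM in the G1 libraries (1.24 ± 0.13). Chaperones went both ways, with 23 of 73 heat shock protein genes risen and 19 fallen. Among the risen were Hsp89.1 of the mitochondrion, with 511 and 430.3 CPM in the G2M libraries, against 121 and 123 CPM in the G1 libraries (1.95 ± 0.12), mtHsc70-1 (1.74 ± 0.13) and cpHsc70-1 of the plastid (1.38 ± 0.13). Among the fallen were HSP101, a heat-inducible chaperone, with 14.2 and 20.8 CPM in the G2M libraries, against 43.5 and 42.8 CPM in the G1 libraries (−1.29 ± 0.23), and HSP17.6A (−2.35 ± 0.32). Ribosomal proteins of the cytosol numbered 1 to 4 lower without any 1 of the G2M and G1 libraries.

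Central carbon metabolism moved in part. Of 60 glycolytic genes 29 rose and 2 fell, AT3G04050, annotated as a pyruvate kinase, with 0 and 3 reads in the G2M libraries, against 135 and 115 reads in the G1 libraries, and AT3G53470 (−1.33), with a median of 0.44. ENO1, the plastid enolase, had 164 and 163 CPM in the G2M libraries, against 70.1 and 71.0 CPM in the G1 libraries (1.21 ± 0.14), PKP-BETA1, a subunit of plastid pyruvate kinase, had 263 and 249 CPM in the G2M libraries, against 124 and 117 CPM in the G1 libraries (1.08 ± 0.12), and LOS2, the main enolase of the cytosol, had 1699 and 1635 CPM in the G2M libraries, against 1093 and 926 CPM in the G1 libraries (0.72 ± 0.13). Genes of the tricarboxylic acid cycle went both ways, with 16 of 46 risen and 13 fallen, and the median was 0.02 with TMM and −0.20 with upper-quartile factors. SDH1-1 (0.99 ± 0.11) and FUM1 (0.87 ± 0.12), enzymes of the mitochondrion, rose, while the cytosolic fumarase FUM2 (−1.67 ± 0.34) and CSY3 (−0.94 ± 0.14), a citrate synthase of the peroxisome, fell. Nuclear genes of the respiratory chain rose in 12 and fell in 14 of 67 cases (median −0.06). Plastid fatty acid synthesis rose as a set, in 14 of 17 genes with none fallen (median 0.81). CAC3, a subunit of acetyl-CoA carboxylase, had 273 and 244 CPM in the G2M libraries, against 109 and 105 CPM in the G1 libraries (1.27 ± 0.13), MOD1, the enoyl reductase, had 319.6 and 304 CPM in the G2M libraries, against 169.7 and 153 CPM in the G1 libraries (0.95 ± 0.13), and WRI1, the factor that activates these genes in seeds, had 19.9 and 23.2 CPM in the G2M libraries, against 10.2 and 10.2 CPM in the G1 libraries (1.08 ± 0.18). In sterol synthesis 8 of 15 genes rose and SQE3 (−1.19) fell, with SMT1, a sterol methyltransferase, at 111 and 119 CPM in the G2M libraries, against 62.7 and 60.3 CPM in the G1 libraries (0.91 ± 0.14). AT3G53470 lost its call without G1 replicate 1 (adjusted p = 0.197), as did AT3G53470 and SQE3 without G1 replicate 2 (0.0889 to 0.111), AT3G53470 without G2M replicate 1 (0.213) and AT3G53470 and SQE3 without G2M replicate 2 (0.0567 to 0.141). AT3G53470 lost its call in limma-voom (adjusted p = 0.0865). Sterol genes numbered 0 lower without G1 replicate 2 or G2M replicate 2 and 4 under upper-quartile scaling. Respiratory chain genes numbered 4 to 7 higher without any 1 of the G2M and G1 libraries and 6 under upper-quartile scaling, and 2 to 9 lower without any 1 of the G2M and G1 libraries and 24 under upper-quartile scaling. Tricarboxylic acid cycle enzymes numbered 4 to 8 lower without any 1 of the G2M and G1 libraries. Glycolytic enzymes numbered 19 higher without G2M replicate 1, and 0 to 1 lower without any 1 of the G2M and G1 libraries, 5 without S replicate 1 and 5 under upper-quartile scaling.

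Phenylpropanoid genes, which make lignin precursors and flavonoids, rose in 13 of 21 cases, with a median of 1.11. PAL1 (AT2G37040), the entry enzyme, had 14.5 and 22.3 CPM in the G2M libraries, against 1.43 and 1.06 CPM in the G1 libraries (3.88 ± 0.42, adjusted p = 1.19e-05). CAD4, of the last step of monolignol synthesis, had 25.0 and 27.8 CPM in the G2M libraries, against 3.89 and 5.21 CPM in the G1 libraries (2.55 ± 0.26), and COMT1 (2.33 ± 0.57), CCOAOMT1 (1.89 ± 0.30), HCT (1.51 ± 0.21) and 4CL2 (2.26 ± 0.43) of the middle steps rose too. CHS (AT5G13930, chromosome 5, 4488476 to 4490264), the entry enzyme of flavonoids, had 65.9 and 71.8 CPM in the G2M libraries, against 8.43 and 6.0 CPM in the G1 libraries (3.25 ± 0.21), with FLS1 of flavonol synthesis at 1.08 ± 0.22. The gene that fell was F6'H1, of the branch to scopoletin, with 6.13 and 7.14 CPM in the G2M libraries, against 31.5 and 25.2 CPM in the G1 libraries (−2.09 ± 0.19). Phenylpropanoid genes numbered 3 lower without either S library and 2 under upper-quartile scaling.

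**Figure D5:**
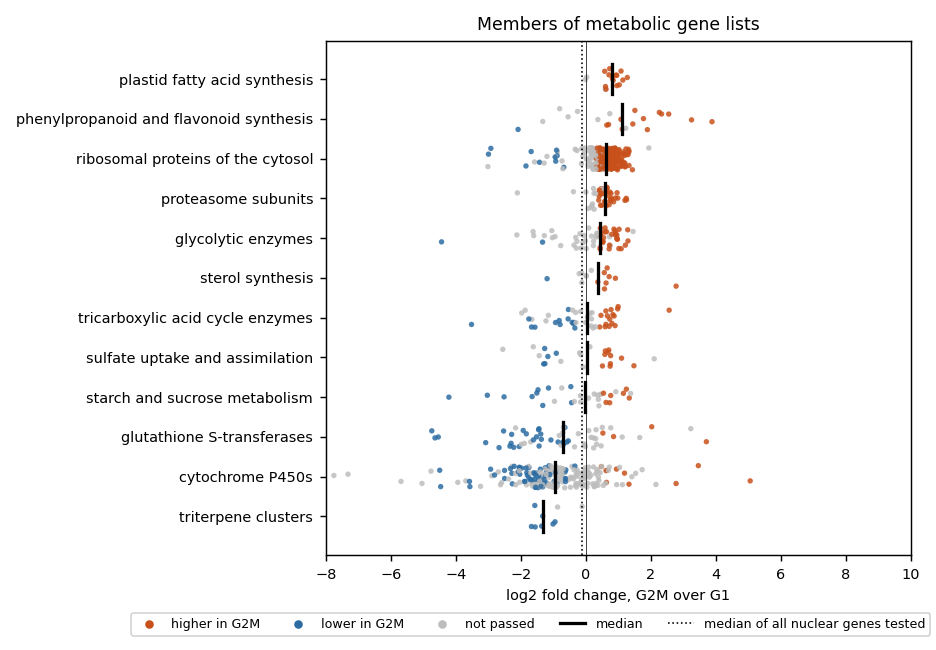
Log2 fold change, G2M over G1 (horizontal axis), of each tested member of 12 lists of metabolic genes, coloured by whether it rose, fell or did not pass, with a bar at the median of the list and a dotted line at the median of all nuclear genes tested, −0.13. Phenylpropanoid and plastid fatty acid genes lie mostly right of 0, and triterpene, cytochrome P450 and glutathione S-transferase genes mostly left.

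Specialised and detoxifying enzymes leaned to the 2n gate. Of 9 triterpene genes of the thalianol and marneral clusters and their relatives, 7 fell and none rose (median −1.33). THAS, the thalianol synthase, had 38.8 and 34.1 CPM in the G2M libraries, against 107 and 109.6 CPM in the G1 libraries (−1.57 ± 0.19), and MRN1, the marneral synthase, had 38.4 and 33.3 CPM in the G2M libraries, against 127 and 101 CPM in the G1 libraries (−1.68 ± 0.17). Cytochrome P450s fell in 62 of 217 cases and rose in 9 (median −0.95). CYP81D11 (−1.58 ± 0.22) and CYP71B7 (−2.21 ± 0.24) were among the fallen, while DWF4, of brassinosteroid synthesis (1.32 ± 0.20), and CYP51G1, of sterol synthesis (0.62 ± 0.14), rose. Glutathione S-transferases fell in 27 of 57 cases and rose in 4, ATGSTF13, ERD9 (3.70), GSTU27 (0.85) and AT5G42150 (0.52) (median −0.71). GSTU19 had 639 and 663 CPM in the G2M libraries, against 1905 and 1826 CPM in the G1 libraries (−1.52 ± 0.11), GSTU7 had 9.995 and 13.1 CPM in the G2M libraries, against 56.6 and 61.6 CPM in the G1 libraries (−2.34 ± 0.18), and GSTF8 had 326 and 392 CPM in the G2M libraries, against 1038 and 935 CPM in the G1 libraries (−1.46 ± 0.13), while ATGSTF13 went the other way with 39.8 and 51.3 CPM in the G2M libraries, against 12.2 and 10.3 CPM in the G1 libraries (2.02 ± 0.19). In the glucosinolate list 3 of 19 genes rose, CYP79B3 (1.19), GTR1 (0.86) and SUR1 (0.72), and 7 fell, with a median of −0.13. There PEN2 (−1.30 ± 0.12) and PYK10 (−0.87 ± 0.12), enzymes that cleave glucosinolates, and the factors MYB29 (−1.62 ± 0.35) and MYB51 (−1.97 ± 0.35) fell, and SUR1, of core synthesis, rose (0.72 ± 0.15). ERD9 and GSTU27 lost their calls without G1 replicate 1 (adjusted p 0.0525 to 0.209), as did ERD9, GSTU27 and AT5G42150 without G1 replicate 2 (0.0720 to 0.0885), GSTU27 and CYP79B3 without G2M replicate 1 (0.0680 to 0.122) and ERD9, GSTU27, AT5G42150 and GTR1 without G2M replicate 2 (0.0640 to 0.858). ERD9 lost its call in DESeq2 (adjusted p = 0.0703), as did GSTU27 with upper-quartile factors (0.112). Cytochrome P450s numbered 14 higher without S replicate 1. Glutathione S-transferases numbered 1 to 2 higher without either G1 library or G2M replicate 2 and 7 without either S library.

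Genes of nutrient uptake and assimilation went both ways. In the sulfur list 10 of 24 genes rose and 5 fell, with a median of 0.02, or −0.20 with upper-quartile factors. The sulfate importer SULTR1;2 had 15.8 and 21.3 CPM in the G2M libraries, against 49.9 and 42.2 CPM in the G1 libraries (−1.30 ± 0.17), and the reductases APR1 (−1.27 ± 0.17) and APR3 (−1.17 ± 0.11) fell, together with SERAT2;1 (−1.26 ± 0.13) and OASA1 (−0.91 ± 0.12). SIR, the sulfite reductase, had 556 and 537 CPM in the G2M libraries, against 206 and 188 CPM in the G1 libraries (1.48 ± 0.14), and the sulfurylases APS1 (0.74 ± 0.17), APS2 (0.76 ± 0.14) and APS3 (0.68 ± 0.15) and the plastid cysteine synthase OASB (1.09 ± 0.13) rose. In the nitrogen list 5 of 22 genes rose, NRT1.8 (2.26), GLN1;4 (1.82), ASN2 (1.47), GLN1;2 (1.06) and GLN1;3 (0.53), and 7 fell, with a median of −0.69. There the transporters NRT2.4 (−2.64 ± 0.57), NRT3.1 (−2.65 ± 0.16) and AMT1;3 (−2.2 ± 0.24) fell, and the glutamine synthetase gene GLN1;4 (1.82 ± 0.28) and the asparagine synthetase gene ASN2 (1.47 ± 0.12) rose. The nitrate transporter NRT1.8 rose with them, with 14.3 and 12.2 CPM in the G2M libraries, against 3.12 and 2.38 CPM in the G1 libraries (2.26 ± 0.29). In the phosphate list 4 of 18 genes rose, LPR1 (1.63), PHF1 (0.52), PDR2 (0.46) and PHR1 (0.44), and 6 fell, with a median of −0.79. Of its importers, PHT1;1 had 9.40 and 10.7 CPM in the G2M libraries, against 37.5 and 42.5 CPM in the G1 libraries (−1.99 ± 0.21), and PHT1;2 (−1.78 ± 0.30) and PHT1;4 (−1.87 ± 0.14) fell alike, though these genes are close copies. In the iron list 2 of 16 genes rose, OPT3 (1.28) and FER4 (0.78), and 4 fell, BHLH101 (−2.65), FRO2 (−2.34), PYE (−0.71) and AHA2 (−0.41), with a median of −0.21, and the reductase FRO2 had 8.20 and 5.93 CPM in the G2M libraries, against 36.6 and 33.7 CPM in the G1 libraries (−2.34 ± 0.19). In the list of starch and sucrose metabolism 7 of 30 genes rose and 10 fell (median −0.04). The hexose importer STP1 (−2.52 ± 0.14), the wall invertase CWINV1 (−1.15 ± 0.13) and SUS6 (−3.03 ± 0.45) fell, and the plastid phosphoglucomutase PGM rose (1.15 ± 0.17). GLN1;2, LPR1, PHF1, PDR2, PYE and AHA2 lost their calls without G1 replicate 1 (adjusted p 0.0544 to 0.336), as did PHF1, PDR2, PHR1 and BHLH101 without G1 replicate 2 (0.0525 to 0.203), LPR1, PHF1, PDR2, PHR1, PYE and AHA2 without G2M replicate 1 (0.0656 to 0.175) and GLN1;2, GLN1;3, LPR1, PHF1, PHR1, FER4, BHLH101 and AHA2 without G2M replicate 2 (0.0508 to 0.339). BHLH101 lost its call in limma-voom (adjusted p = 0.0568), as did GLN1;2, LPR1, PHF1, PDR2 and PHR1 with upper-quartile factors (0.0509 to 0.159). Nitrogen genes numbered 3 higher without G2M replicate 2, and 11 lower under upper-quartile scaling. Phosphate genes numbered 0 to 1 higher without any 1 of the G2M and G1 libraries and 0 under upper-quartile scaling. Iron genes numbered 1 higher without G2M replicate 2, and 2 lower without either G2M library or G1 replicate 1. Sugar and starch genes numbered 1 to 4 higher without any 1 of the G2M and G1 libraries and 2 under upper-quartile scaling.

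Genes of auxin synthesis and conjugation and Aux/IAA repressors fell more often than they rose, while transport genes went both ways. Of 18 genes of synthesis and conjugation 10 fell and 3 rose (median −0.96), against 17.1% fallen and 23.4% risen over all genes tested. TAA1, of the first step from tryptophan, had 19.0 and 20.5 CPM in the G2M libraries, against 39.4 and 41.1 CPM in the G1 libraries (−1.03 ± 0.17), and the flavin monooxygenases YUC8 (−1.73 ± 0.19), YUC9 (−1.2 ± 0.12) and YUC3 (−0.89 ± 0.15) fell. Auxin is conjugated by GH3 enzymes, of which GH3.1 (−1.95 ± 0.15), GH3.17 (−1.67 ± 0.17) and GH3.2 (−1.22 ± 0.17) fell and GH3.5 rose, with 31.8 and 40.1 CPM in the G2M libraries, against 14.01 and 21.2 CPM in the G1 libraries (1.04 ± 0.20). The other genes of this list that rose were IAR3 (0.48) and TSB1 (0.43). Among 23 transport genes 7 rose and 7 fell. The exporters PIN7, with 19.9 and 15.6 CPM in the G2M libraries, against 4.75 and 7.30 CPM in the G1 libraries (1.56 ± 0.26), and ABCB19 (0.75 ± 0.12) and the importer LAX2 (0.86 ± 0.15) rose, while the importer AUX1, with 244 and 218 CPM in the G2M libraries, against 514 and 396 CPM in the G1 libraries (−0.98 ± 0.16), the carriers PILS3 (−1.42 ± 0.14) and PILS5 (−1.68 ± 0.29) and the kinases WAG1 (−1.76 ± 0.13) and WAG2 (−0.67 ± 0.13) fell. Of 25 Aux/IAA repressors 11 fell and 5 rose (median −0.46). IAA2, which auxin induces, had 52.3 and 75.3 CPM in the G2M libraries, against 288 and 308 CPM in the G1 libraries (−2.22 ± 0.16), and IAA7 had 27.0 and 26.3 CPM in the G2M libraries, against 158 and 150.3 CPM in the G1 libraries (−2.54 ± 0.14), with IAA19 (−2.15 ± 0.17) and IAA1 (−2.08 ± 0.13) beside them. The risen repressors were IAA31 (1.82), IAA28 (1.77), IAA13 (0.92), IAA12 (0.72) and IAA9 (0.35). MP, the response factor of early vascular and embryonic patterning, rose (0.64 ± 0.12). IAR3, IAA31, IAA28, IAA13, IAA12 and IAA9 lost their calls without G1 replicate 1 (adjusted p 0.0931 to 0.255), as did IAR3, TSB1, IAA28 and IAA9 without G1 replicate 2 (0.10 to 0.233), TSB1 and IAA9 without G2M replicate 1 (0.0815 to 0.162) and IAR3, TSB1, IAA28, IAA13, IAA12 and IAA9 without G2M replicate 2 (0.0883 to 0.464). IAR3 and IAA9 lost their calls at equal depth (adjusted p 0.0690 to 0.0839), as did IAR3, TSB1, IAA28, IAA12 and IAA9 with upper-quartile factors (0.0668 to 0.270). Auxin synthesis genes numbered 1 higher without G1 replicate 2 or G2M replicate 2 and 1 under upper-quartile scaling. Aux/IAA repressors numbered 0 to 3 higher without either G1 library or G2M replicate 2 and 2 under upper-quartile scaling.

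In the cytokinin list 20 of 77 genes fell and 9 rose (median −0.56). The type-A response regulators, which cytokinin induces and which dampen the response, were among the fallen, with ARR7 at 1.07 and 2.68 CPM in the G2M libraries, against 7.06 and 7.15 CPM in the G1 libraries (−1.87 ± 0.41), ARR6 at −1.82 ± 0.25, ARR3 at −1.47 ± 0.22 and ARR4 at −1.1 ± 0.14. IPT5, of cytokinin synthesis in the root tip, had 5.46 and 2.55 CPM in the G2M libraries, against 12.9 and 11.2 CPM in the G1 libraries (−1.64 ± 0.32), while LOG3 (1.30 ± 0.29) and LOG4 (1.54 ± 0.33), which activate the hormone and are known from early vascular tissue, rose. The gibberellin list rose in 9 and fell in 2 of 25 cases, with a median of 0.12 that turned to −0.10 with upper-quartile factors. GA2 (1.31 ± 0.24) and GA3 (1.03 ± 0.13), of the first steps of synthesis, and GAI (0.83 ± 0.19), a DELLA repressor, rose, and the receptor GID1B (−1.09 ± 0.17) and GASA4 (−1.22 ± 0.12) fell. In the brassinosteroid list 2 of 20 genes rose, BR6OX2 (1.38) and DWF4 (1.32), and 4 fell, IBH1 (−2.72), BAS1 (−1.23), BIN2 (−0.86) and ROT3 (−0.63), with a median of −0.12. DWF4, with 28.4 and 26.5 CPM in the G2M libraries, against 10.4 and 11.5 CPM in the G1 libraries (1.32 ± 0.20), and BR6OX2 (1.38 ± 0.20) rose, while BAS1, which inactivates the hormone, fell (−1.23 ± 0.18). In the abscisic acid list 3 of 26 genes rose, ABA1 (0.65), ABF4 (0.56) and PYL8 (0.48), and 7 fell, with a median of −0.21, and in the ethylene list 7 of 21 genes fell, with a median of −0.29, while EBF2 (0.84), EIN4 (0.70) and ETR1 (0.47) were among the risen. The abscisic acid catabolic genes CYP707A1 (−1.98 ± 0.17) and CYP707A3 (−1.52 ± 0.15) fell, as did the ethylene synthesis genes ACS2 (−1.97 ± 0.34), ACS8 (−1.05 ± 0.14) and ACO4, with 6.0 and 6.37 CPM in the G2M libraries, against 32.3 and 28.1 CPM in the G1 libraries (−2.28 ± 0.20). ROT3, ABA1, ABF4, PYL8 and EBF2 lost their calls without G1 replicate 1 (adjusted p 0.0865 to 0.246), as did ABF4, PYL8, EBF2, EIN4 and ETR1 without G1 replicate 2 (0.0662 to 0.313), ROT3, ABA1, ABF4, PYL8, EBF2 and ETR1 without G2M replicate 1 (0.0648 to 0.286) and ABA1, ABF4, PYL8, EBF2 and ETR1 without G2M replicate 2 (0.0808 to 0.167). ABF4, PYL8, EBF2 and ETR1 lost their calls at equal depth (adjusted p 0.0613 to 0.181), as did ROT3 and ETR1 in limma-voom (0.0545 to 0.0660) and ABA1, ABF4, PYL8, EBF2 and ETR1 with upper-quartile factors (0.0873 to 0.206). Brassinosteroid genes numbered 7 lower under upper-quartile scaling. Abscisic acid genes numbered 0 to 1 higher without any 1 of the G2M and G1 libraries and 0 under upper-quartile scaling, and 4 lower without G2M replicate 1. Cytokinin genes numbered 5 higher without G2M replicate 1 and 14 without either S library, and 13 lower without G2M replicate 1. Gibberellin genes numbered 4 higher without G2M replicate 2, and 4 lower without either S library and 4 under upper-quartile scaling. In the ethylene list 4 genes fell without either G2M library or G1 replicate 1.

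Genes of secreted peptides fell more often than they rose, while receptor kinases went both ways. Of 67 peptide genes 18 fell and 4 rose (median −0.95). CLE41, a phloem-made peptide of the vascular cambium, had 5.06 and 4.79 CPM in the G2M libraries, against 20.9 and 21.1 CPM in the G1 libraries (−2.09 ± 0.23), and CLE26 (−2.68 ± 0.42), CLE14 (−2.18 ± 0.31) and IDL1 (−3.74 ± 0.68) fell as well. The peptides that rose were PSK1 (1.2), RGF4 (1.1), RALF23 (0.93) and CLE17 (0.88). Leucine-rich repeat receptor kinases rose in 45 and fell in 30 of 171 cases, shares near those of all genes (median −0.13). ER, of organ growth and stomatal spacing, had 14.5 and 10.49 CPM in the G2M libraries, against 5.01 and 5.35 CPM in the G1 libraries (1.27 ± 0.25), and the CLE receptor BAM2 (0.73 ± 0.15) and GHR1 (1.17 ± 0.15) rose. SOBIR1, a co-receptor of immunity, had 26.7 and 27.4 CPM in the G2M libraries, against 58.1 and 47.0 CPM in the G1 libraries (−0.96 ± 0.17). Cysteine-rich receptor-like kinases, a family of stress responses, fell in 11 of 32 cases, among them CRK36 (−2.79 ± 0.46), while CRK29 rose (1.28 ± 0.24). The ROP list, with its GTPases and activators, rose in 10 of 33 cases and RIC6 (−2.02) fell, with a median of 0.03 that was −0.19 with upper-quartile factors. ROP9 had 16.4 and 17.3 CPM in the G2M libraries, against 4.76 and 3.68 CPM in the G1 libraries (1.99 ± 0.24), and ROP2 (0.92 ± 0.13) and ROPGEF7 (0.59 ± 0.13), an activator known from the maintenance of the root niche, rose. PSK1, RALF23 and CLE17 lost their calls without G1 replicate 1 (adjusted p 0.0533 to 0.258), as did RALF23 and RIC6 without G1 replicate 2 (0.130 to 0.147), RALF23, CLE17 and RIC6 without G2M replicate 1 (0.120 to 0.146) and PSK1, RALF23, CLE17 and RIC6 without G2M replicate 2 (0.0599 to 0.257). RALF23 and CLE17 lost their calls at equal depth (adjusted p 0.0672 to 0.0902), as did RIC6 in limma-voom (0.118), RALF23 without a count filter (0.0759) and RALF23 and CLE17 with upper-quartile factors (0.119 to 0.135). RALF23 lost its call without organelle genes (adjusted p = 0.0503). Signalling peptide genes numbered 1 higher without G1 replicate 1 or G2M replicate 2 and 2 under upper-quartile scaling. Leucine-rich repeat receptor kinases numbered 16 to 19 lower without either G1 library or G2M replicate 1 and 46 without S replicate 1. Cysteine-rich receptor-like kinases numbered 2 higher without either S library, and 6 lower without either G2M library or G1 replicate 1. ROP genes numbered 6 higher without G1 replicate 1 or G2M replicate 1, and 0 lower without either G2M library or G1 replicate 2, 2 to 4 without either S library or G1 replicate 1 and 2 under upper-quartile scaling.

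Kinase cascades and calcium sensors showed single strong members. MKK6 (AT5G56580, chromosome 5, 22904622 to 22906764), which acts at the phragmoplast, had 70.2 and 57.4 CPM in the G2M libraries, against 13.2 and 12.96 CPM in the G1 libraries (2.28 ± 0.16, adjusted p = 2.92e-07), and MPK5 had 44.2 and 35.4 CPM in the G2M libraries, against 6.91 and 6.67 CPM in the G1 libraries (2.54 ± 0.16). The upstream kinase YDA (0.66 ± 0.14) and the kinases MKK4 (1.02 ± 0.15) and MKK5 (0.74 ± 0.16) rose, while MAPKKK15 (−1.67 ± 0.17), MAPKKK16 (−1.75 ± 0.21), MAPKKK18 (−1.39 ± 0.17) and MAPKKK19 (−2.2 ± 0.28) fell, in a list with 9 of 47 risen and 14 fallen. Calcium sensors and calcium-dependent kinases fell in 28 of 85 cases and rose in 14 (median −0.48), with CML23 (−2.75 ± 0.16), CML37 (−2.3 ± 0.19) and CPK29 (−2.65 ± 0.44) among the fallen and CIPK5 (1.36 ± 0.22) and CBL2 (0.75 ± 0.15) among the risen. Calcium sensor genes numbered 8 to 9 higher without either G2M library or G1 replicate 2, and 17 lower without G2M replicate 1. MAP kinase cascades numbered 9 lower without G1 replicate 1 or G2M replicate 2.

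Families of transcription factors known from stress responses fell more often than they rose. Of 68 WRKY factors 25 fell and 4 rose (median −0.91). WRKY53 had 11.7 and 13.9 CPM in the G2M libraries, against 49.0 and 44.3 CPM in the G1 libraries (−1.86 ± 0.16), WRKY33 had 103 and 120.0 CPM in the G2M libraries, against 234.9 and 206 CPM in the G1 libraries (−0.98 ± 0.13), and WRKY22 had 32.0 and 33.3 CPM in the G2M libraries, against 112 and 107 CPM in the G1 libraries (−1.75 ± 0.13). The risen ones were WRKY28 (3.02), WRKY21 (0.92), TTG2 (0.80) and WRKY39 (0.71), of which TTG2 acts in epidermal fate. NAC factors fell in 33 of 98 cases and rose in 4 (median −1.06). Beyond those of root cap and phloem, ATAF1 had 417 and 469 CPM in the G2M libraries, against 1108 and 1059 CPM in the G1 libraries (−1.29 ± 0.13), and ANAC087 (−2.71 ± 0.16) and NAC046 (−2.69 ± 0.20), which act in cell death of the root cap, fell. SOG1, the NAC factor of the DNA damage response, was among the 4 that rose (0.45 ± 0.16), with NAC105 (1.16), NAC082 (0.77) and NAC084 (0.73). AP2/ERF factors fell in 28 of 96 cases and rose in 6 (median −0.69), with ERF4 (−1.31 ± 0.17), ERF104 (−1.55 ± 0.18) and DREB2A (−1.54 ± 0.12) among the fallen and BBM, PLT2 and WRI1 among the risen. MYB factors were even, with 29 of 211 risen and 33 fallen. MYB3R-4 (AT5G11510, chromosome 5, 3679748 to 3684884), an activator of genes with the MSA core, had 55.6 and 40.7 CPM in the G2M libraries, against 6.95 and 6.20 CPM in the G1 libraries (2.86 ± 0.18). FLP, which ends divisions of the stomatal lineage, rose (1.03 ± 0.15). Among GRAS factors AT1G63100, with 93.1 and 80.6 CPM in the G2M libraries, against 10.7 and 7.88 CPM in the G1 libraries (3.21 ± 0.21), rose more than SCR and SHR. WRKY28 and SOG1 lost their calls without G1 replicate 1 (adjusted p 0.0823 to 0.0854), as did TTG2 and SOG1 without G1 replicate 2 (0.109 to 0.259), WRKY39 and SOG1 without G2M replicate 1 (0.0527 to 0.0566) and WRKY28, TTG2, SOG1 and NAC084 without G2M replicate 2 (0.0673 to 0.406). SOG1 lost its call at equal depth (adjusted p = 0.117), as did SOG1 with upper-quartile factors (0.245). NAC factors numbered 2 higher without G2M replicate 2 and 10 without either S library. WRKY factors numbered 2 higher without G2M replicate 2. AP2/ERF factors numbered 14 lower without G1 replicate 2 or G2M replicate 1. MYB and MYB-related factors numbered 11 to 18 higher without either G2M library or G1 replicate 2 and 18 under upper-quartile scaling, and 14 to 21 lower without any 1 of the G2M and G1 libraries and 53 to 54 without either S library.

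Of 113 basic helix-loop-helix factors 14 rose and 20 fell (median −0.21). ATMYC1, a relative of GL3 known from epidermal patterning, had 15.9 and 12.2 CPM in the G2M libraries, against 2.16 and 1.97 CPM in the G1 libraries (2.75 ± 0.27), while AT5G48560 fell (−2.21 ± 0.18). In the bZIP family 7 of 61 rose and 14 fell, with bZIP1 (−2.23 ± 0.27) and BZIP53 (−1.53 ± 0.14), known from the response to low sugar, among the fallen and FD (1.45 ± 0.33) among the risen. Lateral organ boundary factors fell in 4 of 27 cases and rose in none (median −1.55). Those that fell were LBD15 (−2.70), LBD25 (−1.96), LBD13 (−1.54) and LBD37 (−0.72), a share below that of all genes. Of the 7 with a mean of at least 5 CPM, 3 fell and none rose, with a median of −0.59. Over all genes at that level 19.5% fell and the median was 0.29. Auxin response factors rose in 4 of 20 cases, ARF7 (0.98), ARF8 (0.92), ARF2 (0.87) and MP, and fell in 3, ARF19 (−0.58) and the cap regulators ARF10 and ARF16. ARF19 lost its call without G1 replicate 1 (adjusted p = 0.236), as did LBD25 without G1 replicate 2 (0.0754), LBD25, ARF7 and ARF19 without G2M replicate 1 (0.0563 to 0.189) and ARF19 without G2M replicate 2 (0.133). ARF19 lost its call in limma-voom (adjusted p = 0.0695). Basic helix-loop-helix factors numbered 8 to 9 higher without G1 replicate 1 or G2M replicate 2 and 9 under upper-quartile scaling, and 10 lower without G1 replicate 2 or G2M replicate 1. Factors of the bZIP family numbered 3 to 4 higher without any 1 of the G2M and G1 libraries and 4 under upper-quartile scaling, and 7 to 9 lower without either G2M library or G1 replicate 1. LBD factors numbered 1 higher without either S library, and 9 lower without S replicate 1 and 7 under upper-quartile scaling. Auxin response factors numbered 5 lower without either S library.

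Transcripts that respond to wounding and to the making of protoplasts were lower in the 4n gate. Of 26 such genes 14 fell and none rose (median −0.80), and their summed level was 1391 and 1528 CPM in the G2M libraries, against 2647 and 2577 CPM in the G1 libraries. ZAT12, a zinc finger factor of oxidative stress, had 82.9 and 123 CPM in the G2M libraries, against 419 and 465 CPM in the G1 libraries (−2.1 ± 0.17), and PROPEP3, the precursor of a danger peptide, had 2.53 and 1.94 CPM in the G2M libraries, against 12.3 and 11.3 CPM in the G1 libraries (−2.42 ± 0.29). WIND1, a factor of wound-induced regeneration, fell (−0.86 ± 0.12), and the immune kinase gene MPK3 had 134 and 123 CPM in G2M against 154 and 141 CPM in G1 (adjusted p = 0.294). Several genes of this list are also in the WRKY and AP2/ERF lists. Both gates went through the same making of protoplasts, and the part of that handling in the falls of stress genes was not tested. Redox genes went both ways, with 6 of 22 risen and 6 fallen. These included GPX2 (−2.15 ± 0.13) and GPX6 (−1.35 ± 0.14), peroxidases of the glutathione peroxidase type, among the fallen and VTC2 (1.49 ± 0.22), of ascorbate synthesis, and the glutathione reductases GR1 (1.11 ± 0.14) and GR2 (0.96 ± 0.16) among the risen. Redox genes numbered 3 lower without G2M replicate 1 and 10 under upper-quartile scaling. Wounding genes numbered 2 higher without either S library, and 9 lower without G2M replicate 1.

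For most called genes the mean of the S libraries, which share the fit, lay between the gates. Called genes were chosen for a difference between the gates, and no share over all genes tested was taken. The mean of the S libraries was between the G2M and G1 means for 4963 of the 5882 genes that rose (84.4%) and for 3330 of the 4280 that fell (77.8%). It was above both gates for 591 of the risen and 670 of the fallen genes, and below both for 328 and 280.

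The called genes also differed in structure, which the contrast did not use. The median exon length was 2038 bases in genes that rose, 1565 bases in genes that fell and 1626 bases in all genes tested. Risen genes had a median of 6 exons, fallen genes 3 and all genes 4. Genes with a single exon made up 9.27% of the risen, 23.6% of the fallen and 20.6% of all. The 14093 genes with a mean of at least 5 CPM had a median length of 1892 bases and 5 exons, closer to the risen genes than the medians of all genes are. Chromosome 1 held 25.6% of risen, 26.4% of fallen and 26.4% of all genes, and chromosome 5 held 24.0% of risen, 22.1% of fallen and 22.9% of all.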

How the data were processed

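Each library was made with SMART-Seq v4 and Ovation Ultralow V2 chemistry, per the labels' protocols. Trimmomatic 0.39, HISAT2 2.2.1, featureCounts and the TAIR10 build are named in the submitters' processing notes; for strand and multi-mapping reads the setting was not given in the sources used here. The table deposited by the authors holds raw counts of reads per gene, not normalized. A second deposited table, named for TPM, was not used, since its columns sum to far less than TPM values do.

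Counts of all 6 libraries (G2M, G1 and S, 2 each) were fitted together in edgeR 4.0.16 under R 4.3.3, with TMM factors, the filterByExpr filter by gate and the quasi-likelihood F test. Fold changes are G2M over G1 on the log2 scale, the SE is the absolute log2 fold change divided by the square root of F, and Benjamini-Hochberg adjustment ran over all 25364 genes that passed, of which 275 from plastid and mitochondrion are not reported. A gene was called at an adjusted p under 0.05. With 2 libraries against 2, an exact permutation test of 1 gene cannot go below 0.333. Simulated counts over 24866 genes held 97 genes with known 2-fold and 100 with known 4-fold changes. The fit gave back 42.3% of the 2-fold and 73.0% of the 4-fold changes, with 11 false calls. A far larger share of genes was called in the data, so these rates do not carry over to this contrast. The 2 libraries of a gate were not 1 library deposited again, since chi-square divided by its degrees of freedom came to 6.86 between the G2M libraries and 28.6 between the G1 libraries.

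The gene lists and the genes described were chosen with earlier results of these data known. Named genes were the 12 largest changes in each direction with a symbol, libraries that did not overlap and at least 10 CPM in the higher gate, the 6 most abundant with at least a 2-fold change, the smallest p-values of each list in each direction, markers that define a cell type, and the members of a list where 5 or fewer were called. Not all genes this rule picked are reported here, and others were added after their values were seen. Names, coordinates and promoter sequences come from the RefSeq annotation of TAIR10.1. Alternatives were DESeq2 1.42.0, limma-voom (limma 3.58.1), other scalings and filters, thinning to equal depth and each library left out in turn.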

Additional observations from a re-analysis of the deposited data

How the results depend on the processing

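Over the alternatives that kept all 6 libraries, the fewest of the 10162 calls, 8722, remained with upper-quartile factors, and none of those retested changed sign. With 1 library left out in turn, genes higher in G2M numbered 4151 to 6944 and genes lower in G2M 2492 to 5748. Leaving out a G2M or G1 library kept fewer of the 10162 calls than upper-quartile factors did. Of the 10159 calls that could be retested without G2M replicate 2, 1 had the other sign. None did without G2M replicate 1 or either G1 library. A gate left with 1 library is assumed to vary like the other gates. The other fits called 5882 higher and 4291 lower with DESeq2's size factors, 6109 and 4464 in DESeq2, 6145 and 3651 in limma-voom, 6814 and 5990 from the 4 libraries of G2M and G1 alone, 5390 and 4392 at equal depth, 5838 and 4433 without a count filter, and 5864 and 4352 without organelle genes. List members with a mean of at least 5 CPM were also counted, an alternative chosen after seeing the data. Of all genes at that level 19.5% fell. Falls came to 38 of 72 cytochrome P450s, 17 of 30 pectin methylesterase genes, 10 of 19 peptide genes and 20 of 35 NAC factors. Rises came to 6, 6, 3 and 4. Other lists had medians near 0, against 0.29 over all such genes. These were 0.08 for pectin lyases and polygalacturonases, −0.05 for UDP-glycosyltransferases, −0.08 for cytokinin genes and 0.07 for root hair genes. Over all lists and settings, 2141 counts of risen or fallen members stayed near their values and 387 moved. Among named genes, 329 of the retests lost the call. Promoter shares taken from the 250 bases before the start alone were lower, 24.5% of risen and 20.19% of fallen genes for the MSA core.

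Libraries of the gates carry the same replicate numbers, but nothing in the labels pairs them. The deviations of same-numbered libraries correlated at 0.06 between G2M and G1, −0.10 between G2M and S and −0.07 between G1 and S, so the numbers were not taken as pairs. A fit with the replicate number as a block called 5709 genes higher and 3889 lower, and 9512 of the 10162 calls remained.

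Depth limits the weakly expressed genes. Levels near the floors of the shallower G2M libraries rest on few reads, and a gene under the floor was not detectable, which does not show it absent. Counts per gene are relative to all RNA of a library, so a change in total RNA per cell cannot be seen.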

Other observations

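Gene groups outside the lists, taken by their shared description in the annotation after their values were seen, stood well away from the shares of 39.7% risen and 19.5% fallen among the 14093 genes with a mean of at least 5 CPM. Each count here is over genes at or above that level. Of 18 genes described as DEA(D/H)-box RNA helicases, which unwind RNA in ribosome making and splicing, 17 rose and none fell, with a median log2 fold change of 1.40. Pseudouridine synthases rose in 13 of 16 cases, with none fallen and a median of 1.104. Of 11 genes of the TCP-1/cpn60 chaperonins, which fold tubulin and actin among other proteins, 10 rose and none fell (median 1.33). Proteins that act on organelle RNA rose too, with 95 of 132 genes described as pentatricopeptide repeat proteins risen and 3 fallen (median 1.03), and 19 of 25 mitochondrial transcription termination factors risen and none fallen (median 1.12).

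Groups on the side of the 2n gate included genes described as histone superfamily proteins, of which 21 of 25 fell and 1 rose (median −0.85). Histone genes described in other words are not counted here. Mannose-binding lectins fell in 9 of 10 cases, with none risen (median −1.36), VQ motif proteins, partners of WRKY factors, in 8 of 10 with 1 risen (median −1.42), and GDSL lipases in 11 of 16 with 1 risen (median −0.98). Genes between AT2G07667 and AT2G07835, in the stretch of chromosome 2 that copies mitochondrial DNA, were tested in 79 cases without a level minimum, of which 28 fell and 1 rose (median −1.14). Reads of the mitochondrion, whose share of counts was 2.94% and 3.13% in the G2M libraries against 8.23% and 6.53% in the G1 libraries, could be assigned to them, and its part in these values was not tested.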
